A study of Mus musculus with 2 samples.

Results

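Integrins, laminins and their close partners of the cell-matrix contact were examined in mouse fetal thymic stromal cells grown in reaggregation thymus organ culture (RTOC) or in flat two-dimensional (2D) culture. The set was chosen by gene name: integrin alpha and beta chains, laminin alpha, beta and gamma chains, nidogens, perlecan, agrin, dystroglycan, fibronectin and vitronectin. It held 41 of the 27670 gene names on the arrays, read by 87 of 41174 probes. Perlecan and agrin were not analysed here, since none of the probes carried these 2 names.

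The study used these cultures to look for transcription factors that follow Psmb11, a proteasome gene of cortical thymic epithelium. Lobes from E14.5 or E15.5 fetuses, C57BL/6 by the labels, had been kept with 1.35 mM deoxyguanosine, which depletes developing T cells, for 8 days (E14.5) or 9 days (E15.5) in all groups, controls included. The dispersed cells were then placed on a membrane (RTOC) or in a dish (2D) for 72 h. Each of 2 arrays compared RTOC RNA (labelled with Cy5) with 2D RNA (Cy3) of 1 stage, without a dye swap, so a dye effect of a probe cannot be told apart from a culture effect, and a stage effect cannot be told apart from the days in organ culture or from the array. The sources used here do not say how many lobes or litters went into each channel. The p-values treat the 2 arrays as replicates.

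Integrins are pairs of an alpha and a beta chain that tie the cytoskeleton of a cell to its matrix or to another cell. Laminins are trimers of an alpha, a beta and a gamma chain that form the sheet of the basement membrane, where nidogens link them to collagen IV. In the thymus, basement membranes line the capsule, the septa and the vessels, epithelial cells contact laminin, and blood cells use integrins to enter and to move.

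Each probe is a 60-base sequence, and short stretches are shown for the genes whose reading depended on the probe or on the array. The 3 Itga8 probes are shown because they gave the difference between the arrays described below. Itga6 and Itgb3 are shown because 1 probe of each pointed the other way. The first 30 bases of each are printed, from 5′ to 3′, as the array files give them. The array files used here place no probe in the genome. The genes lie, by the RefSeq table of GRCm38.p6, on chromosome 2 (Itga8 and Itga6) and on chromosome 11 (Itgb3).
Itga8, brightest probe: catacattggtattctcgaggagtctatct
Itga8, second probe: agtcaaaacatggtttcccatggtctcaac
Itga8, dim probe: aagaggaggaagtcggtcctttggttgagc
Itga6, brightest probe: tctggagtatcttggagcctagcacactgg
Itga6, second probe: gacacccagtatggacctacagtttcaact
Itga6, opposite probe: attctattcctgttgccgtcacaaaataag
Itgb3, probe used: tgggactctctgccattatgtttacagagg
Itgb3, opposite probe: ccacagcaacatcagagtctttgtccattt
None of the tested Itga8, Itga6 or Itgb3 probes shared 15 or more bases with another probe of its gene. Only 2 genes had such probes, Itgb4 with 50 shared bases and Lama4 with 29, so that agreement of those probes repeats the same stretch of the message. The Lama4 overlap is shown with the shared bases in capitals.
Lama4, brightest probe, bases 1 to 30: TTGGATGTAGACTCAGAAGTGAACCATGTa
Lama4, overlapping probe, bases 31 to 60: gTTGGATGTAGACTCAGAAGTGAACCATGT

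Most of the integrin and laminin genes that differed between the cultures were lower in RTOC. Of 35 genes bright enough to test, 16 were called lower, 3 were called higher and 16 were not called. Among all 16133 tested genes, 12.0% were called lower and 16.6% higher, the shares to set beside each count of calls below. A call is an adjusted p under 0.05 in limma, adjusted over all 23681 tested probes, and a gene is read by its brightest tested probe. Signals are quantile-normalized intensities without a unit, to be compared between channels of 1 probe only. The median log2 ratio of RTOC over 2D was -0.63 over the 35 genes and 0.05 over all tested genes, and the 35 genes had medians of -1.05 at E14.5 and -0.42 at E15.5. Counted without a test on the quantile-normalized ratios, 13 genes were at least 2-fold lower on both arrays and 3 at least 2-fold higher. The lower genes include Itgb6 and the higher ones Vtn, whose dimmer culture was not well above background. For both, only a bound is given below. Among all 16133 tested genes, 1376 were at least 2-fold lower on both arrays and 1942 at least 2-fold higher. The count of lower calls depended on the processing. After background correction and median centring in place of quantile normalization 9 were called, without Itga1, Itga6, Itga11, Itgav, Itgb5, Lama3 and Lamb2. Background correction, here and below, means the normexp method on the raw signals, with an offset of 50 added. The main values use processed signals that were already background-subtracted. No member was called (0 lower, 0 higher) when all dim probes entered the limma fit, in which 20 had an unadjusted p under 0.05. In RNA of mixed cells, fewer cells of a type and less RNA per cell cannot be told apart.

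**Figure D1:**
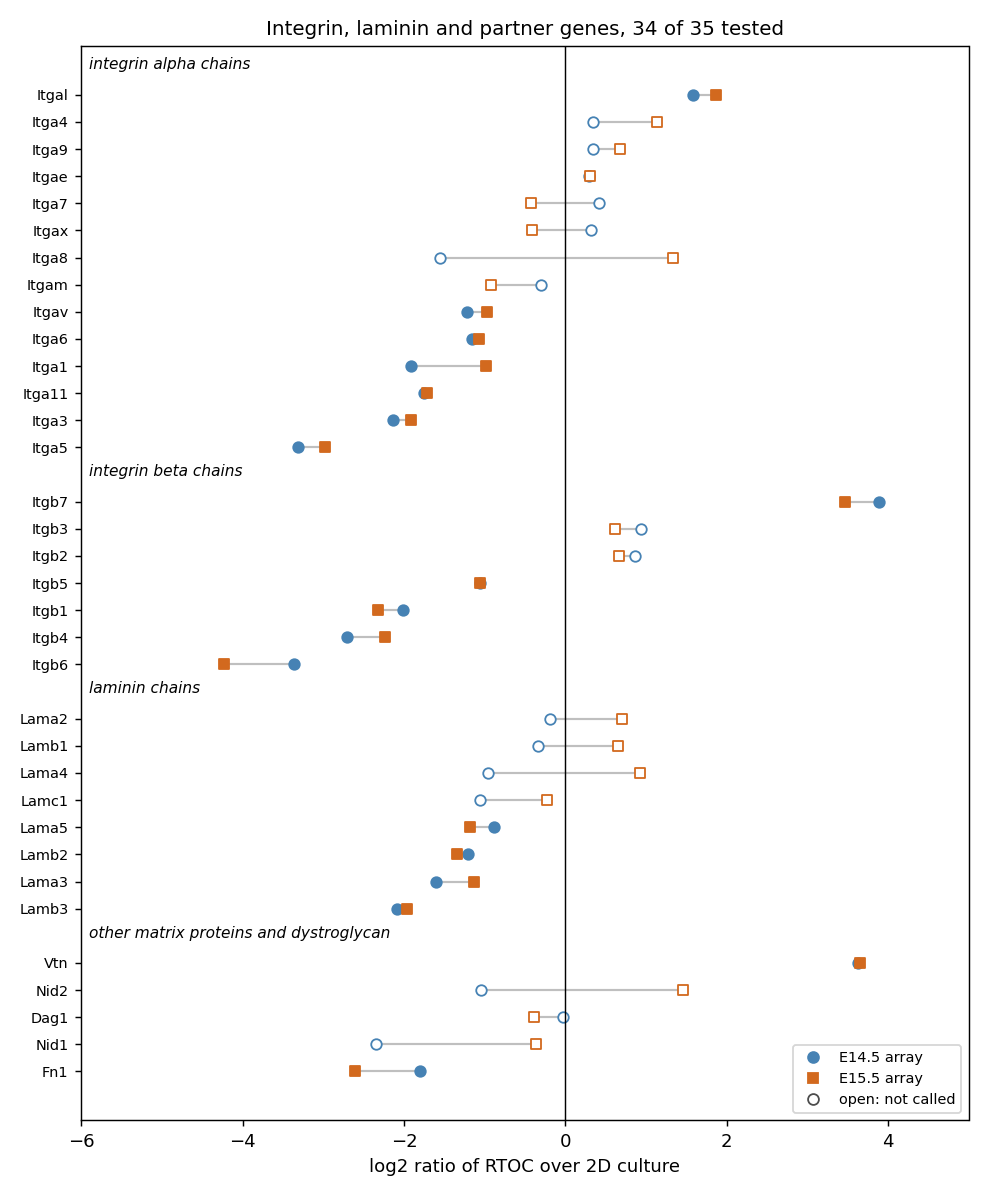
The horizontal axis gives the log2 ratio of RTOC over 2D culture for 34 of the 35 tested genes, grouped by role, with a circle for the E14.5 array and a square for the E15.5 array. Filled symbols are called genes: 15 lie left of zero and 3 right of it.

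Among the integrin alpha chains, 6 of 14 tested were called lower and 1 higher, with a median log2 ratio of -0.36. Itga5 pairs with Itgb1 as the main fibronectin receptor. Its signal was 2599 in 2D and 263 in RTOC at E14.5, and 1359 and 172 at E15.5. Both RTOC values lay below both 2D values, and the log2 ratio was -3.15 ± 0.23 (SD, n = 2 arrays, adjusted p = 0.00218), or 8.85-fold lower. The size depended on the processing. From raw signals with normexp background correction, the log2 ratio was -1.83 with loess (adjusted p = 0.0212) and -1.71 with median centring (adjusted p = 0.0369). Itga5 was called lower under both.

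Itga3 and Itga6 are the chains of epithelial laminin receptors. Itga3 read 3440 in 2D and 784 in RTOC at E14.5, and 3746 and 999 at E15.5. Its log2 ratio was -2.02 ± 0.16 (SD, n = 2, adjusted p = 0.00506), and its other tested probes, the lowest at -3.01, were called lower as well. Under background correction and median centring the Itga3 ratio was -1.41 (adjusted p = 0.0324). For Itga6 the brightest probe read 9953 and 4498 at E14.5, and 11631 and 5540 at E15.5, a log2 ratio of -1.11 ± 0.05 (adjusted p = 0.0271). The Itga6 probes did not agree: the second gave -0.87 (adjusted p = 0.053) and the opposite probe shown above gave 0.90 (adjusted p = 0.0798). That opposite probe read 251 in 2D and 626 in RTOC at E14.5, and 281 and 392 at E15.5.

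The remaining alpha chains called lower bind collagens or the RGD motif of matrix proteins. Itga11, a collagen receptor of mesenchymal cells, read 2074 in 2D and 616 in RTOC at E14.5, and 1128 and 345 at E15.5. It differed by -1.73 ± 0.03 on the log2 scale (SD, n = 2, adjusted p = 0.00743). With background correction the Itga11 ratio was -0.98 under loess (adjusted p = 0.0316) and -0.87 under median centring, where it was not called (adjusted p = 0.0638). Itga1, another collagen receptor, read 356 and 94.5 at E14.5, and 445 and 225 at E15.5, with the lower value in RTOC on both arrays. Its log2 ratio of -1.45 ± 0.66 (adjusted p = 0.0254) became -0.43 (adjusted p = 0.1) after background correction and loess, so the call rests on the processing, and 1 of its 3 tested probes gave -0.08.

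Itgav, the alpha chain shared by the RGD receptors that include those activating latent TGF-beta, read 6888 in 2D and 2948 in RTOC at E14.5, and 4973 and 2547 at E15.5. The log2 ratio was -1.09 ± 0.18 (SD, n = 2, adjusted p = 0.0297). A second Itgav probe was not well above background in RTOC on either array and was at least 1.47-fold lower there.

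One alpha chain was called higher in RTOC. Itgal, which pairs with Itgb2 in lymphocytes and other white blood cells, read 455 in 2D and 1367 in RTOC at E14.5, and 347 and 1273 at E15.5. Both RTOC signals exceeded both 2D signals, with a log2 ratio of 1.73 ± 0.20 (SD, n = 2, adjusted p = 0.00805), while its second probe gave 0.37 and was not called. With background correction and loess the ratio of Itgal was 1.15 (adjusted p = 0.021). The white-cell chains Itgam, Itgax, Itgae and Itga4 had log2 ratios of -0.61, -0.04, 0.30 and 0.75, and none of these 4 was called. Itga9, at 0.51, and Itga7, at 0.00, were not called either. Itga2, Itga2b and Itga10 were too dim to test.

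Of the 7 integrin beta chains tested, 4 were called lower and 1 higher. Itgb1, the partner of most alpha chains, was printed at 10 spots of each array. Its signal was 15590 in 2D and 3863 in RTOC at E14.5, and 21825 and 4381 at E15.5. The 10 spots gave -2.01 ± 0.05 (SD between spots, a technical spread) on the first of these arrays and -2.32 ± 0.04 on the second. Over the arrays the log2 ratio was -2.16 ± 0.21 (SD, n = 2, adjusted p = 0.00436).

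Itgb4 pairs only with Itga6 and anchors epithelial cells to laminin in the hemidesmosome. It read 43283 in 2D and 6615 in RTOC at E14.5, and 52215 and 11103 at E15.5. The log2 ratio was -2.47 ± 0.34 (SD, n = 2, adjusted p = 0.00359), or 5.55-fold lower in RTOC, and -2.78 at the overlapping second probe.

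Itgb6, an epithelial chain that pairs with Itgav and activates latent TGF-beta, read 492 in 2D and 47.9 in RTOC at E14.5, and 622 and 33.1 at E15.5. Neither RTOC signal was well above background, so only a bound can be given: Itgb6 was at least 2.06-fold lower in RTOC, and at least 1.48-fold lower at a second probe. Under quantile normalization Itgb6 had an adjusted p of 0.00217 in limma. After background correction and loess the Itgb6 log2 ratio was -1.05 (adjusted p = 0.0353). Itgb5, another Itgav partner, read 28742 and 13898 at E14.5, and 24167 and 11702 at E15.5. It was lower by nearly the same ratio on each array, -1.05 ± 0.00 (SD, n = 2, adjusted p = 0.0315).

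The 2 probes of Itgb3, the Itgav partner in the vitronectin receptor, gave opposite results. The probe used here read 1472 in 2D and 2830 in RTOC at E14.5, and 1476 and 2274 at E15.5, a log2 ratio of 0.78 ± 0.23 that was not called (adjusted p = 0.0734). The opposite probe read 3035 and 1079 at E14.5, and 2897 and 1448 at E15.5, and its log2 ratio of -1.25 ± 0.35 was called lower (adjusted p = 0.0243). After background correction and median centring the probe used here was called higher (0.81, adjusted p = 0.047). No direction is given for Itgb3. The brightest probe of Itgb8, a further TGF-beta-activating chain, was well above background only in 2D at E15.5. It read 126 there, against 36.0 in RTOC, and 34.3 and 32.0 in 2D and RTOC at E14.5. Another Itgb8 probe was well above background only in RTOC at E15.5 (44.8, against 72.3 in 2D), and Itgb8 was not tested.

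Itgb7 was the integrin gene with the highest log2 ratio. It pairs with Itga4 or Itgae in white blood cells, among them the cells that lodge in epithelia. On the log2 scale its signal was 8.38 in 2D and 12.26 in RTOC at E14.5, and 8.49 and 11.96 at E15.5. The RTOC signals stood far above both 2D signals, and the log2 ratio was 3.68 ± 0.30 (SD, n = 2, adjusted p = 0.00174), or 12.8-fold higher. From raw signals with normexp background correction it was smaller but still called, 2.66 under loess (adjusted p = 0.0127) and 2.80 under median centring (adjusted p = 0.0143). Itgb2, the beta chain common to white blood cells, had a log2 ratio of 0.77 ± 0.13 and was not called (adjusted p = 0.0727).

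Some markers of blood cells were called higher in RTOC, as Itgb7 and Itgal were. Of 7 haematopoietic markers, 4 were called higher, and the summed signal was 9247 to 9509 in 2D and 47630 to 50295 in RTOC. Summed signals, here and below, follow their brightest probes. Adgre1 alone held 34872 of the RTOC sum at E14.5 and 39429 at E15.5. Ptprc, the common white-cell marker, had a log2 ratio of 1.88 and the macrophage marker Adgre1 of 3.01, whereas the T-cell marker Cd3e had -0.08 and was not called. Of 5 platelet and megakaryocyte markers, the 2 tested, Pf4 and Ppbp, were called lower, the summed signal was 81626 to 81772 in 2D and 3105 to 3183 in RTOC, and the platelet receptor genes Gp1ba and Gp9 were not well above background in any channel. The part of these markers in the integrin results was not tested.

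Laminin chains were lower in RTOC or not called: 5 of 9 tested were called lower and 0 higher, with a median log2 ratio of -1.03. At an unadjusted p under 0.05 the count of higher chains was 0 as well, both in limma and in the methods' t-test. Lama3 and Lamb3, chains of the laminin by which epithelia are anchored, were both among those called lower. Lamb3 read 2583 in 2D and 611 in RTOC at E14.5, and 2306 and 592 at E15.5, a log2 ratio of -2.02 ± 0.08 (SD, n = 2, adjusted p = 0.00489). The Lamb3 ratio was -1.42 (adjusted p = 0.0182) and -1.28 (adjusted p = 0.0373) after background correction with loess and with median centring.

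Lama3 read 7326 in 2D and 2410 in RTOC at E14.5, and 5173 and 2372 at E15.5, a log2 ratio of -1.36 ± 0.34 (SD, n = 2, adjusted p = 0.0188). Its second probe gave -0.04 and was not called, so the Lama3 result rests on 1 probe. Lama3 and Lamb3 each had higher 2D than RTOC signals on both arrays at the probe used.

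The chains of the broad basement membrane laminins were less uniform. Lama5, the alpha chain common in adult epithelia and vessels, read 5734 in 2D and 3126 in RTOC at E14.5, and 13893 and 6151 at E15.5. Its log2 ratio was -1.03 ± 0.21 (SD, n = 2, adjusted p = 0.0363). Lamb2 read 2271 and 981 at E14.5, and 1493 and 588 at E15.5, a log2 ratio of -1.28 ± 0.09 (adjusted p = 0.0186). Lamc1, the gamma chain of most laminins, was 18279 and 8829 at E14.5, and 17398 and 14941 at E15.5, and its log2 ratio of -0.63 ± 0.59 was not called (adjusted p = 0.171). Lama1 and Lamc3 were too dim to test. Lama2, Lama4 and Lamb1 had opposite signs on the 2 arrays and are described below.

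**Figure D2:**
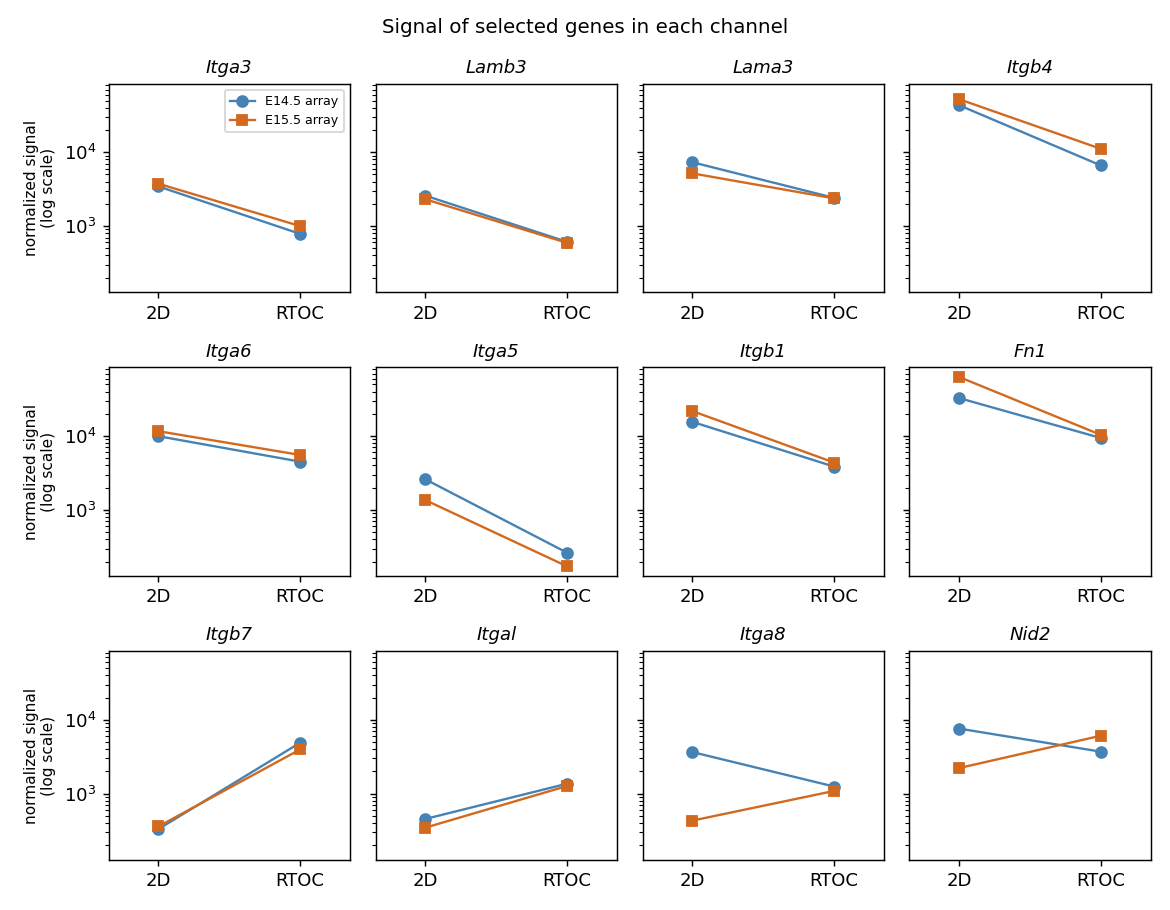
Each panel gives the quantile-normalized signal of a gene (log scale) in 2D culture and RTOC, joined by a line for each array. The 8 genes from Itga3 to Fn1 fall from 2D to RTOC on both arrays, Itgb7 and Itgal climb on both, and Itga8 and Nid2 slope opposite ways on the 2 arrays.

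Epithelial genes did not move as a block with these laminin and integrin chains. Of 10 thymic epithelial markers, 5 were called higher in RTOC and 2 lower, with a median log2 ratio of 1.67. All 10 were well above background in all 4 channels. Their summed signal was 311310 to 640788 in 2D and 736227 to 820136 in RTOC. Krt8, which was not called, was the brightest of the 10 in each channel. Trp63, Foxn1, Psmb11, Ly75 and Krt5 were the 5 higher genes, at 3.70, 2.65, 3.90, 4.47 and 2.90, while Krt14 and Cdh1 were lower at -1.86 and -1.28.

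Among the 5 other matrix genes, fibronectin was called lower and vitronectin higher. Fn1, the ligand of Itga5 with Itgb1, read 32673 in 2D and 9403 in RTOC at E14.5, and 63111 and 10365 at E15.5. Its 10 spots gave -1.80 ± 0.04 and -2.61 ± 0.04 (SD between spots) at E14.5 and E15.5, in this order. Over the arrays the log2 ratio was -2.20 ± 0.57 (SD, n = 2, adjusted p = 0.00655), and its 3 probes lay between -2.21 and -1.90.

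Vtn encodes vitronectin, a ligand of Itgav with Itgb3 or Itgb5. Its signal was 15.3 in 2D and 190 in RTOC at E14.5, and 60.8 and 770 at E15.5. Neither 2D signal was well above background, so only a bound can be given: Vtn was at least 1.80-fold higher in RTOC. Under quantile normalization Vtn had an adjusted p of 0.00163 in limma. After background correction and loess its log2 ratio was 0.85 and it was no longer called (adjusted p = 0.092).

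Dystroglycan, Dag1, a laminin receptor that is no integrin, read 1871 in 2D and 1829 in RTOC at E14.5, and 4471 and 3423 at E15.5. The log2 ratio of -0.21 ± 0.25 was not called (adjusted p = 0.577), while a second probe, at -1.10, was called lower (adjusted p = 0.0318). Nidogen 1, Nid1, read 46899 in 2D and 9254 in RTOC at E14.5 but 16061 and 12548 at E15.5. Its log2 ratio of -1.35 ± 1.40 was not called (adjusted p = 0.093).

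The 2 arrays did not give the same picture for every gene. Of the 35 genes, 7 had log2 ratios of opposite sign on the arrays, against 20.1% of all tested genes, and 4 differed by at least 1, against 14.4% of all tested genes, so neither count stood above its background. Of the 7, Itga8, Nid2, Lama4, Lama2 and Lamb1 were lower in RTOC at E14.5 and higher at E15.5, and Itgax and Itga7 the reverse. With 1 array for each stage, no test of these differences is possible.

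Itga8 had the widest gap among the set. It pairs with Itgb1, binds nephronectin and is known from mesenchymal and smooth muscle cells. The brightest probe read 3671 in 2D and 1252 in RTOC at E14.5, and 432 and 1090 at E15.5. The log2 ratios were -1.55 and 1.34, a difference (E15.5 minus E14.5) of 2.89, and 94 of the 23681 tested probes had a larger absolute difference (percentile 99.6).

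A second Itga8 probe, which shares no run of 15 bases with the first, read 1662 in 2D and 463 in RTOC at E14.5, and 171 and 472 at E15.5, a difference of 3.31. The dim probe was not well above background in any channel and gave 3.28. The 2 RTOC signals of Itga8 were close to each other, and the 2D signals were far apart: on the log2 scale the E15.5 signal over the E14.5 signal was -3.09 in 2D and -0.20 in RTOC at the brightest probe, and -3.29 and 0.03 at the second. Both bright probes thus placed the gap in the 2D channel. Npnt, the nephronectin gene, read 388 and 460 at E14.5, and 165 and 542 at E15.5, and its log2 ratios of 0.24 and 1.71 were not called (adjusted p = 0.121).

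Nid2, the second nidogen, read 7616 in 2D and 3709 in RTOC at E14.5, and 2225 and 6103 at E15.5, log2 ratios of -1.04 and 1.46. Lama4, an alpha chain of vessel and mesenchymal basement membranes, read 2754 and 1418 at E14.5, and 1280 and 2441 at E15.5, log2 ratios of -0.96 and 0.93. In both genes the order of the cultures turned between the arrays. The other 2 bright Lama4 probes had differences of 1.88, at the overlapping probe, and 1.97, at a probe that does not overlap.

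Lamb1 read 14217 in 2D and 11269 in RTOC at E14.5, and 11198 and 17550 at E15.5. Lama2, a chain of muscle and nerve laminins that also occurs in mesenchyme, was printed at 10 spots: they gave -0.42 to 0.04 at E14.5 and 0.55 to 0.98 at E15.5, a technical spread within 1 hybridization each. At this Lama2 probe the lower ratio at E14.5 lay close to zero, and became 0.02 after background correction and median centring. A second tested Lama2 probe gave -0.71 at E14.5 and 0.47 at E15.5.

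In Nid1, Nid2, Lama4 and Lama2, as in Itga8, the E15.5 signal was below the E14.5 signal in 2D, by -1.55, -1.78, -1.11 and -0.97 on the log2 scale. The same comparison in RTOC gave 0.44, 0.72, 0.78 and -0.07. For Lamb1 it gave -0.34 in 2D and 0.64 in RTOC. These values compare channels of different arrays, without the pairing of 2 channels within a spot. Markers of other cells did not all fall in 2D between the arrays. On the E15.5 array, 18 of the 35 tested members and 48% of all tested genes had a lower 2D signal. The 2D signal was lower for 5 of 5 smooth muscle markers, 6 of 8 fibroblast markers and 3 of 7 endothelial markers. It was lower for 1 of 10 thymic epithelial, 3 of 7 haematopoietic and 1 of 2 tested platelet and megakaryocyte markers. It was 2386 at E14.5 and 776 at E15.5 for the smooth muscle Myh11, 780 and 170 for the fibroblast Pdgfra, and 1043 and 211 for the endothelial Kdr, a choice made after the values were seen. In the other direction it was 3002 and 6133 for the fibroblast Thy1 and 104 and 116 for the endothelial Esam. The part of these cells in the Itga8 and nidogen differences was not tested.

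**Figure D3:**
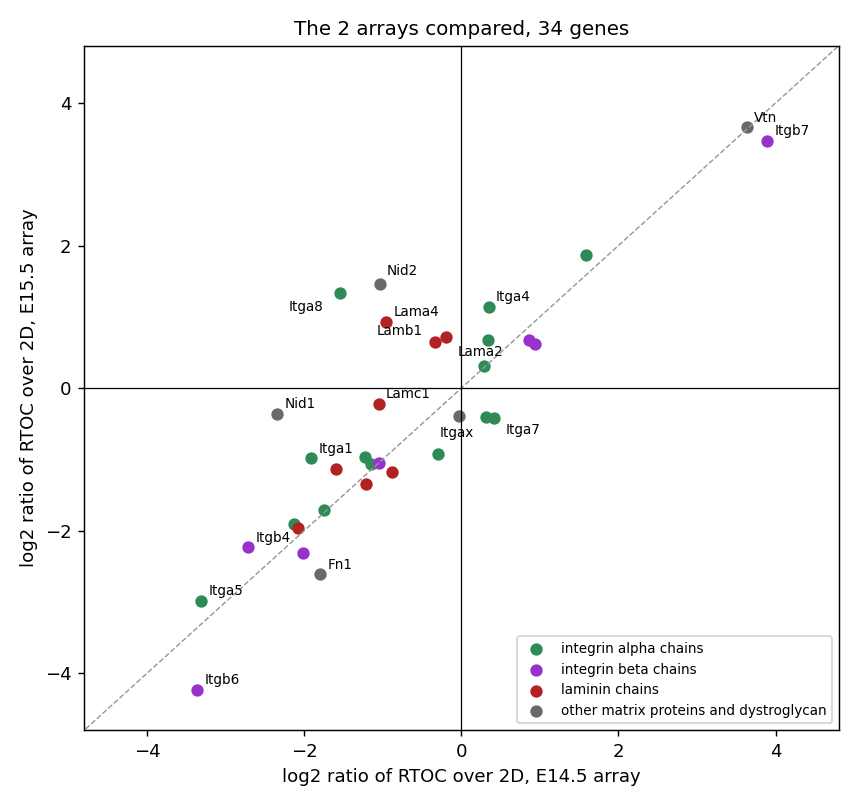
The log2 ratio of RTOC over 2D on the E15.5 array is plotted against that on the E14.5 array for 34 of the 35 tested genes, coloured by role, with a dashed line where both are equal. Itga8, Nid2, Lama4, Lamb1 and Lama2 lie at the upper left, lower in RTOC at E14.5 and higher at E15.5.

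**Figure D4:**
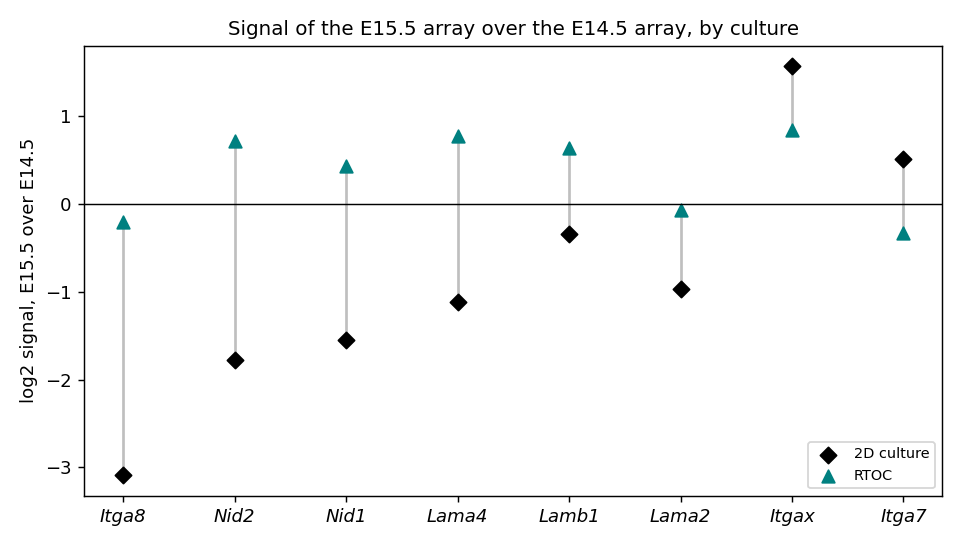
For 8 genes the vertical axis gives the log2 signal of the E15.5 array over the E14.5 array, with a diamond for 2D culture and a triangle for RTOC. In Itga8 the diamond lies at -3.09 and the triangle at -0.20.

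Collagen IV, the network to which nidogens tie the laminins, had 4 of 6 chains called lower and 0 higher, with a median log2 ratio of -0.99 (0 higher at an unadjusted p under 0.05 in limma and in the methods' t-test as well). Col4a3 read 1838 in 2D and 233 in RTOC at E14.5, and 4055 and 363 at E15.5, a log2 ratio of -3.23 ± 0.35 (adjusted p = 0.00223). Col4a1, a chain of nearly all basement membranes, was at -1.45 ± 0.66 (adjusted p = 0.0254), and the other called chains, Col4a2 and Col4a5, at -0.93 and -1.05.

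Of 12 tested genes for other basement membrane proteins, 5 were called lower and 4 higher, against 12.0% and 16.6% of all tested genes. Col7a1, the anchoring fibril collagen that fastens Lama3-containing laminin to the dermis in skin, had the lowest log2 ratio, -3.43 ± 0.35 (adjusted p = 0.00196), followed by Fbln2 at -2.38 ± 0.22 (adjusted p = 0.00355). The epithelial matrix protein Frem2 had the highest, 4.08 ± 0.17 (adjusted p = 0.0016), and its complex partner Fras1 was called higher at 1.74. Egflam, known as a dystroglycan ligand, was higher at 2.39 ± 0.47 (adjusted p = 0.00449).

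Hemidesmosome proteins and the membrane partners of laminin-binding integrins were lower in 5 of 8 cases and higher in 0, with a median log2 ratio of -1.16 (0 higher at an unadjusted p under 0.05 in limma and in the methods' t-test as well). Col17a1, a hemidesmosome collagen, read 3131 in 2D and 216 in RTOC at E14.5, and 1855 and 441 at E15.5, a log2 ratio of -2.96 ± 1.26 (adjusted p = 0.00891). Plec, which joins Itgb4 to keratin filaments, was at -1.84 ± 0.27 (adjusted p = 0.0072). Cd63, at -0.90, and Cd81, at -1.38, are tetraspanins and were called lower, while Dst, the second keratin linker, had 0.57 and was not called.

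The proteins that activate integrins or carry their signal were tested in 25 genes, with 10 called lower and 0 higher. At an unadjusted p under 0.05 limma gave 1 higher gene, Rap1a, and the methods' t-test 0. Vcl, vinculin of the focal adhesion, read 11413 in 2D and 1269 in RTOC at E14.5, and 24678 and 1987 at E15.5, a log2 ratio of -3.40 ± 0.33 (adjusted p = 0.00195). Lims2, a scaffold next to Ilk, was at -2.92 ± 0.09 (adjusted p = 0.00228). Fermt1 and Ilk, an integrin activator and a beta chain adaptor, were called lower at -1.27 and -1.36, whereas Tln1, the main talin, at -0.80 was not called (adjusted p = 0.0635).

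Ligands of integrins outside the basement membrane split. Of 17 tested, 6 were called lower and 2 higher. Ccn2, a matricellular protein, was at -5.10 ± 0.48 and Thbs1, thrombospondin 1, at -4.66 ± 0.05 (adjusted p = 0.0016 for each). Icam2, a ligand of Itgal with Itgb2, was higher at 3.42 ± 0.25 (adjusted p = 0.0018), and Vcam1, the ligand of Itga4 with Itgb1, at 2.81 ± 1.37 (adjusted p = 0.0125). Endothelial markers were called higher in 6 of 7 cases, with a summed signal of 688 to 1589 in 2D and 6996 to 10615 in RTOC. Of the 2D sum at E14.5, 1043 came from Kdr, which was not called. Pecam1, Cdh5, Tek and Tie1 were not well above background in 2D. The part of the endothelial markers in the Icam2 and Vcam1 results was not tested.

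Dystroglycan partners and the enzymes that glycosylate it had 3 of 16 tested genes called lower and 0 higher, with a median log2 ratio of -0.39. Among all tested genes 12.0% were called lower and 16.6% higher, so the lower count is near that share. At an unadjusted p under 0.05, limma and the methods' t-test each gave 1 higher gene. The lower genes included Dmd (-1.72 ± 0.61, adjusted p = 0.0145) and Pomgnt1 (-1.02 ± 0.25, adjusted p = 0.0379).

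Contractile genes were lower in RTOC in most cases, and fibroblast genes did not all move one way. Of 5 smooth muscle markers, 4 were called lower, with a median log2 ratio of -3.66 and a summed signal of 532997 to 634625 in 2D and 40460 to 67096 in RTOC. Of the 8 fibroblast markers 4 were called lower and 3 higher, with a summed signal of 330766 to 431114 in 2D and 272544 to 291534 in RTOC. Col1a1, the type I collagen chain, was at -2.16, and Lum, lumican, at 4.55. Their part in the integrin results was not tested.

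**Figure D5:**
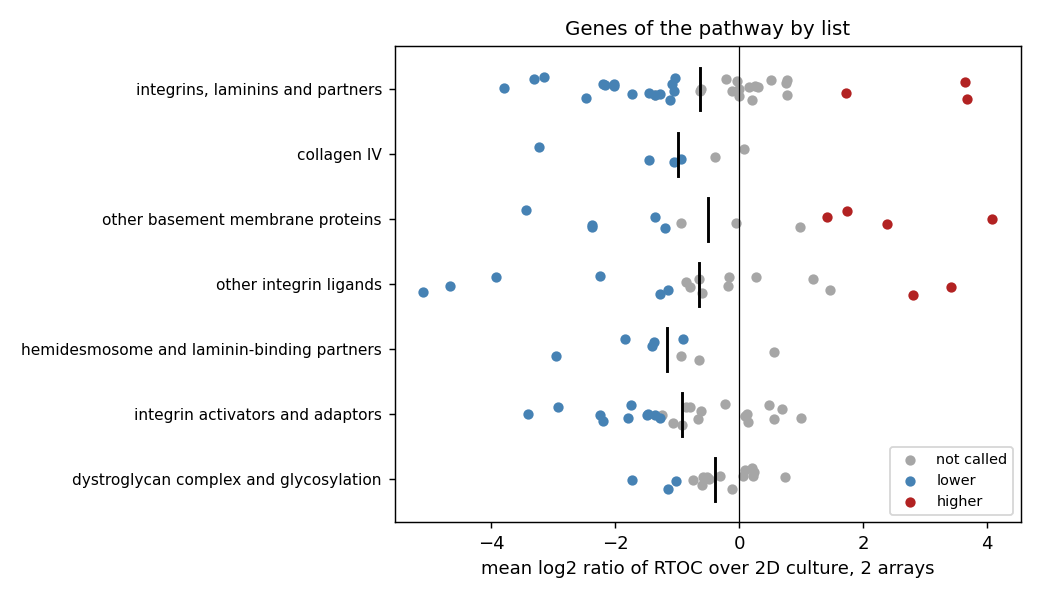
The horizontal axis gives the mean log2 ratio of RTOC over 2D on the 2 arrays for each tested gene, and each row is a list. Blue points were called lower, red higher and grey not called, the vertical offset within a row has no meaning, and the black bar is the median, which lies below zero in each of the 7 rows.

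Promoter windows from RefSeq (GRCm38.p6, 250 bases before to 50 after a start) were held for 26 of the 41 genes, 11 of them called lower. Windows were searched on both strands for the letters TGANTCA, bound by AP-1, and CATTCC, bound by TEAD factors, a pair of motifs chosen after the values were seen. No searched window of a gene of the set held both. The genes called lower had 14 windows. AP-1 letters occurred in 1 of these (7.14%), that of Itga3, and in 7.81% of all windows. The match lay 12 bases after a start that is internal to Itga3, whose gene spans chr11:95044475-95076844. TEAD letters occurred in 2 (14.3%), those of Itgb1 and Lamb3, and in 14.7% of all windows. The Lamb3 window is also at an internal start, since that gene begins at chr1:193294353. Neither the AP-1 nor the TEAD share was above that of all windows, and Lama3 did not enter these shares. Of the 2 windows of genes called higher, 1 held TEAD letters, that of Vtn, and 0 held AP-1 letters. The 30 bases around each match in a gene called lower are shown with the motif in capitals, on the strand of the gene, where GGAATG is CATTCC read on the other strand.
Itga3, chr11:95069168-95069197, minus strand: gggctggtgccTGAATCActggcttgctca
Itgb1, chr8:128685635-128685664, plus strand: acgcggcgcggaGGAATGcgtttccggagg
Lamb3, chr1:193302064-193302093, plus strand: gaggggaccccaCATTCCcagggagctctc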

How the data were processed

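RNA of RTOC (Cy5) and 2D culture (Cy3) was hybridized to 2 two-colour Agilent arrays of 1 slide, scanned together. Per the file headers, Feature Extraction 9.1.3.1 made the deposited processed signal, an intensity that was background-subtracted and dye-normalized within the array, and the labels name version 11.5.1.1. The authors' deposited series values are the log10 ratio of these signals (largest difference 5e-10). The methods name quantile normalization among all arrays.

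Control spots and outlier spots (5 on the E14.5 array, 1 on the E15.5 array) were removed. Quantile normalization of the 4 channels was followed by log2 of RTOC over 2D, averaged over the spots of a probe. No member spot was saturated (0). Well above background were 53.1% to 60.9% of the probes per channel. Testing was limited to the 23681 of 41174 probes with a channel well above background on each of the arrays. The log2 ratio was fitted with limma 3.58.1 (R 4.3.3), two-sided, with Benjamini-Hochberg adjustment over all tested probes. With 1 residual degree of freedom, the variance came largely from all probes together (prior degrees of freedom 4.5), and the number of arrays limits the precision. Only the limma fit and its adjustment were tried on simulated ratios, which were drawn with limma's own variances. Normalization, the filter on dim probes and the bounds were not tried in this way. Bounds ("at least") come from normexp (offset 50), loess and Aquantile normalization, with the lowest signal well above background as the floor. The alternative settings with loess or median centring also started from raw signals with normexp and this offset. Names of probes came from the array files, updated through a RefSeq table of GRCm38.p6, in which all members were found (only Lamb1 differed).

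The members, lists, motifs and tests were chosen with earlier results of these data known. The rule for values in all 4 channels took the 20 tested members with the largest log2 ratio in size, the chains of the main epithelial laminins and their receptors, and the matrix partners. Of each list it took the called genes with the 2 highest and 2 lowest ratios, and other genes of the lists were named after their values were seen. Some genes of the set and of the lists entered the counts, medians and sums but are not reported here by name.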

Additional observations from a re-analysis of the deposited data

Results flagged for a closer look

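Of the 35 tested members, 7 had log2 ratios of opposite sign on the 2 arrays, which hold different stages, with all 4 channels well above background. Among all tested genes 20.1% had opposite signs, so the count is near the background. The differences were not tested, since each stage has 1 array. The log2 ratio of RTOC over 2D at E15.5 minus that at E14.5 was 2.89 for Itga8, 2.49 for Nid2, 1.89 for Lama4, 0.98 for Lamb1 and 0.90 for Lama2, and it was -0.84 for Itga7 and -0.73 for Itgax. Over all tested probes the median absolute difference between the arrays was 0.40. Ranked by it among those probes, Itga8 stood at percentile 99.6, Nid2 at 99.2, Lama4 at 97.6, Lamb1 at 85.3, Lama2 at 82.3, Itga7 at 79.9 and Itgax at 74.9. With background correction and loess, Itga8 had log2 ratios of -1.27 and 0.78, Nid2 -1.03 and 1.23, Lama4 -0.78 and 0.74 and Lamb1 -0.34 and 0.56.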

How the results depend on the processing

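Of the 35 tested members, 3 were called higher and 16 lower. The lower count was 9 after normexp and median centring, which shared 11 of the 19 calls and moved the median of all tested probes on the E15.5 array to 0.19. Itgb3 was called higher there (0.81). Without a replicate block, with the 4 channels as separate samples, 9 were lower and 3 higher. With no filter on dim probes the counts were 0 and 0, with 20 members under an unadjusted limma p of 0.05. The methods' t-test gave 0 and 0 after adjustment and 9 lower and 3 higher unadjusted. Loess gave 15 lower and 2 higher (17 shared), the series values 16 and 3 (19 shared), all channels well above background 15 and 2 (17 shared), and trend with robust fitting 16 and 4 (19 shared). The median log2 ratio of -0.63 ranged from -1.05 to -0.42 when 1 array was left out, and from -0.83 to -0.32 otherwise. The Itga8 difference of 2.89 was 2.06 with loess, 2.31 with median centring, 2.90 in the series values, and 3.31 and 3.28 at its other probes. Uncalled ratios changed sign for Dag1 (0.00), Lama4 (0.12) and Itgax (0.07) with median centring, and for Itga7 (-0.06) with loess. The cause was not tested. Numbers of arrays, the lack of a dye swap and dim signals limit these results.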
